A study of Danio rerio with 12 samples.

Results

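Integrins are receptors in the cell membrane made of an alpha and a beta subunit, and the beta subunit carries the cytoplasmic tail that binds talin and kindlin and so links matrix outside the cell to actin inside it. The beta subunit also sets which alpha partners a cell can use. Beta 1 pairs with many alphas to bind fibronectin, laminin and collagen, beta 2 and beta 7 are leukocyte subunits, beta 3 is best known from platelets and endothelium, beta 4 from the hemidesmosomes of epithelia, and beta 5 as a partner of alpha v. These pairings are known mainly from mammals. The transcripts described here are 10 zebrafish integrin beta genes given as a list of symbols, itgb1a, itgb1b, itgb1b.1, itgb1b.2, itgb2, itgb3a, itgb3b, itgb4, itgb5 and itgb7. All 10 were found in the expression table among 25011 genes.

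The study sorted haemogenic endothelium, the aortic endothelium from which blood stem and progenitor cells arise, out of zebrafish trunks at 36 hours post-fertilisation. Sorted cells carried both mCherry under kdrl, an endothelial gene, and GFP under a runx1 enhancer. The dnmt3ba morphants came from embryos injected with a morpholino against the de novo DNA methyltransferase gene dnmt3ba, which the labels class as knockdown, and the controls are labelled wild type. Both groups carried the same reporters, and each library pooled about 5000 cells from several embryos. RNA-seq was made from 3 biological replicates of each group, and the series title names integrin signalling as its subject. No source used here says what the controls received, so an effect of injection cannot be told apart from one of the morpholino.

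Library totals ran from 24397076 to 25132656 estimated counts. In CPM (read counts scaled to library size with TMM factors) dnmt3ba itself averaged 559 ± 138 in morphants and 577 ± 186 in controls (SD, n = 3 each). These values neither show a knockdown nor check the labels, since a morpholino that blocks translation can leave transcript levels as they are. Whether this morpholino blocks translation was not tested. The sorted cells expressed all 27 endothelial markers on a list, with summed levels of 7011 to 7763 TPM in morphants and 3547 to 4869 TPM in controls. Of the genes whose promoter or enhancer drove the reporters, kdrl averaged 375 ± 248 CPM in morphants and 119 ± 57.6 CPM in controls, and runx1 13.6 ± 2.67 CPM in morphants and 32.3 ± 8.85 CPM in controls. The endothelial cadherin cdh5, which was not used in the sort, averaged 67.1 ± 12.5 CPM in morphants and 49.9 ± 9.86 CPM in controls. The libraries also held transcripts of other cell types. Skeletal muscle markers summed to 10485 to 24214 TPM in morphants and 15792 to 75457 TPM in controls. Erythroid markers summed to 2482 to 9423 TPM in morphants and 10190 to 25583 TPM in controls. Neutrophil and macrophage markers summed to 10155 to 32577 TPM in morphants and 9164 to 30380 TPM in controls, and no listed marker of any of these types was at 0 in all libraries. Control 2 stood apart from controls 1 and 3 in its low muscle sum and high neutrophil and macrophage sum. In bulk samples, fewer cells of a type and less RNA per cell cannot be told apart.

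Levels of the beta subunits can be compared with each other only per length, in TPM (the authors' level per transcript length). itgb1b, the main beta 1 gene, was the most abundant by its mean in both groups, at 66.2 ± 25.0 TPM in morphants and 90.5 ± 5.65 TPM in controls (SD, n = 3 each). itgb2 came next, at 47.5 ± 13.7 TPM in morphants and 65.4 ± 47.2 TPM in controls, and its range overlapped that of itgb1b in both groups. itgb5 followed, at 19.4 ± 3.52 TPM in morphants and 12.7 ± 3.13 TPM in controls, below every itgb2 library in either group. In controls its range overlapped that of itgb7, which was the higher in control 2, at 21.6 against 14.3 TPM. After these the order differed between the groups. In morphants itgb3b and itgb7 followed with overlapping ranges, and itgb1b.2, itgb1b.1, itgb1a, itgb4 and itgb3a lay lowest, each overlapping its neighbour. For controls the order ran from itgb7 through itgb1b.1, itgb4, itgb1a and itgb3b to itgb1b.2. Their ranges overlapped from each gene to the next, and itgb3a lay apart below them. By mean level itgb1b ranked 2347 of 25011 genes in morphants and 1658 in controls, and itgb3a ranked 16271 in morphants and 20930 in controls.

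The place of itgb1b at the top rests on the length the authors divided by. The deposited counts and FPKM values imply a length of 1359 bases for itgb1b, against 2156 to 7061 bases for the other 9 genes. Whether 1359 bases cover the whole transcript of itgb1b was not tested. In reads alone the mean of itgb2 stood above it in both groups, at 125 ± 41.1 CPM in morphants and 156 ± 79.2 CPM in controls, where itgb1b had 67.4 ± 22.5 CPM in morphants and 93.2 ± 18.3 CPM in controls (SD, n = 3 each). In morphant 2 itgb1b was the higher of the pair in reads too, at 93.2 CPM against 83.3 CPM for itgb2.

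**Figure D1:**
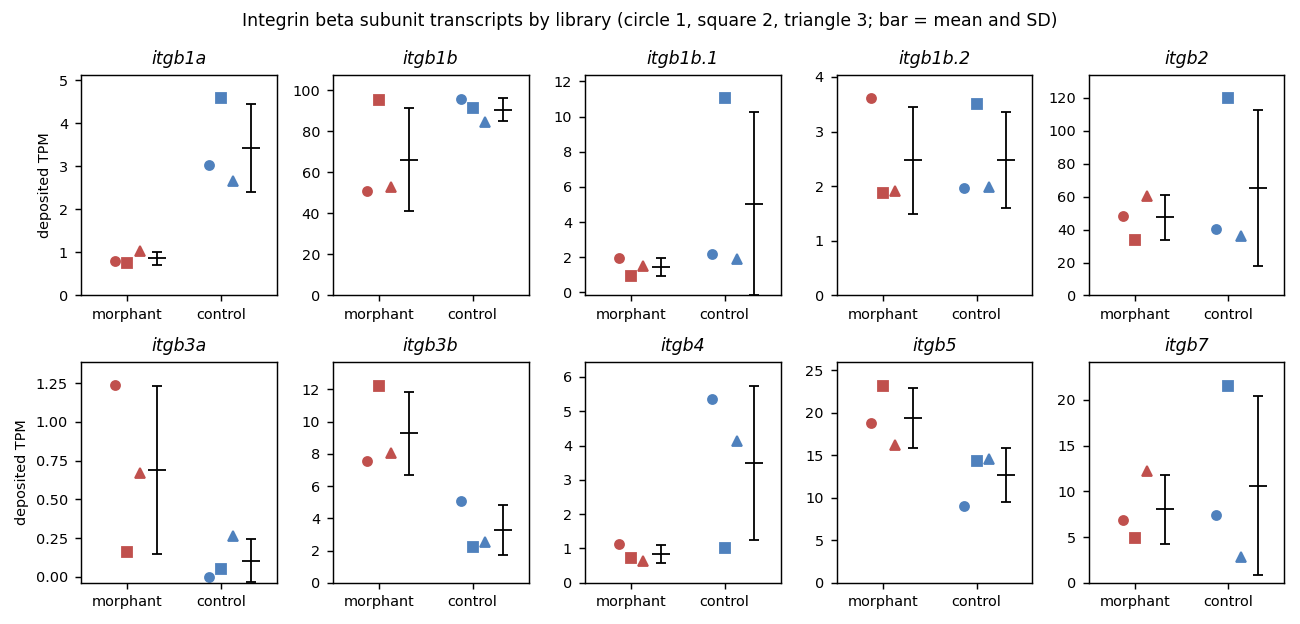
Deposited TPM of each integrin beta gene by library, with morphants left of controls, symbols for the replicate number, and bars for the mean and SD of 3 libraries. The morphant and control points lie apart for itgb1a, itgb3b and itgb5, while control 2 is the highest point for itgb2, itgb7 and itgb1b.1.

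The main question of the design was which transcripts differ between dnmt3ba morphants and controls. No beta subunit passed edgeR's quasi-likelihood test after Benjamini-Hochberg adjustment over all 18846 genes tested, a threshold of 0.05 that 0.0637% of all genes passed. At an unadjusted p under 0.05 there were 2 beta genes higher and 3 lower in morphants. Over all genes 7.58% were higher and 9.46% lower by that measure. The 2 higher became 1 without morphant 1, morphant 2, control 1 or control 2, and 3 without control 3. The 3 lower became 2 without morphant 1, morphant 3, control 1 or control 2. With limma-voom 1 was lower, where 1590 of 18846 genes were lower. With 1 library left out, 863 to 1543 of all genes were higher and 855 to 1987 lower. Those fits tested 19350 to 19525 genes. DESeq2 called 1 higher, itgb3b, and 2 lower, itgb1a and itgb4, where it called 3.5% of genes higher and 3.71% lower, and limma-voom called 0. The median log2 fold change of the 10 genes was -0.28 and that of all genes tested was -0.04. The median of the 10 turned to 0.18 without control 2 and was -0.03 without morphant 2 and -0.50 without control 3. All 10 passed the filter on low counts. itgb3a did so through morphants 1 and 3 and control 3.

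Morphant and control libraries did not overlap in CPM for 4 beta genes. These were 2 with higher values in morphants, itgb3b and itgb5, and 2 with lower values, itgb1a and itgb1b.1. Over all genes 12.4% lay apart with higher values in morphants and 11.9% with lower values, so 2 of 10 in each direction is close to the background at this number of genes.

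**Figure D2:**
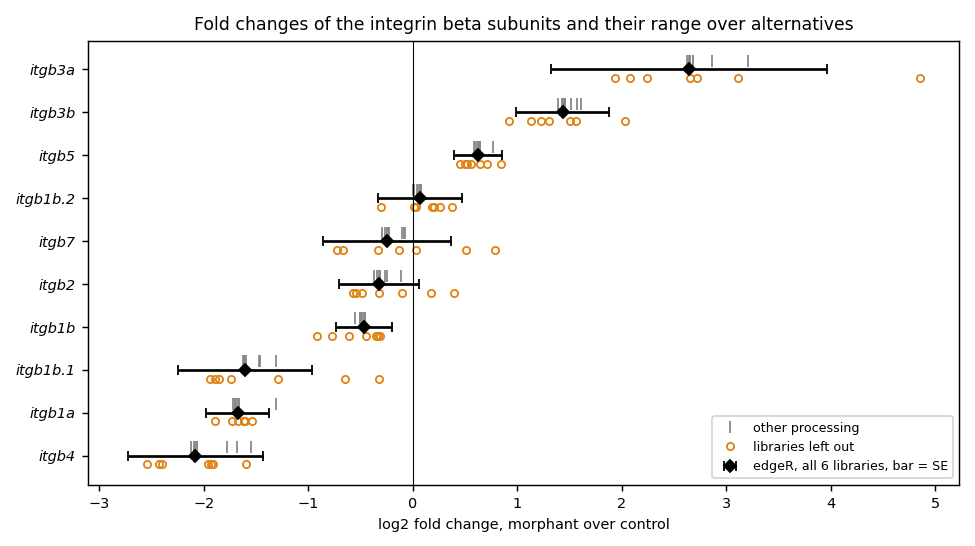
Log2 fold change of each integrin beta gene, morphant over control, as diamonds with SE bars from edgeR on all 6 libraries, with ticks for other processing settings and open circles for fits that left out libraries. itgb3b and itgb5 stay right of 0 and itgb1a and itgb4 stay left of 0 in every setting drawn, whereas itgb2, itgb7 and itgb1b.2 have points on both sides.

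Beta 1 is encoded by 4 of these genes. itgb1a measured 2.83, 3.2 and 4.49 CPM in morphants 1 to 3, against 12.2, 11.2 and 10.2 CPM in controls 1 to 3. All 3 morphants lay below all 3 controls, and the controls lay close together. The log2 fold change was -1.68 with an SE of 0.30, a ratio of 0.313 (edgeR adjusted p = 0.11, unadjusted p = 0.00064), which was place 108 among all genes tested by p. With DESeq2 the adjusted p was 6.1e-05, and over the 16 alternatives the log2 fold change stayed between -1.89 and -1.31.

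The level of itgb1a was low throughout, at 72 to 109 estimated counts in morphants and 239 to 309 in controls. Its deposited counts over FPKM implied a length that varied 1.43-fold over the 6 libraries, from 4093 to 5858 bases. Among 14002 genes with an FPKM of at least 0.5 in each library the median variation was 1.01-fold, and 0.993% varied as much as itgb1a. Part of its difference in TPM, 0.863 ± 0.155 in morphants and 3.42 ± 1.02 in controls (SD, n = 3 each), therefore comes with a difference in the length the authors divided by, which counts do not share.

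itgb1b, the abundant beta 1 gene, measured 52.0, 93.2 and 56.8 CPM in morphants 1 to 3, against 110.5, 74.1 and 95.1 CPM in controls 1 to 3. Morphant 2 lay among the controls and control 2 among the morphants. Its log2 fold change was -0.47 with an SE of 0.27 (edgeR adjusted p = 0.41). Over the 16 alternatives it ran from -0.91 with control 2 and morphant 2 both left out (edgeR adjusted p = 0.027) to -0.31 without morphant 1 (edgeR adjusted p = 0.79), and the first of these alone passed the threshold.

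itgb1b.1 and itgb1b.2 lie directly beside itgb1b, with no other annotated gene between the 3 in the RefSeq table of the assembly GRCz12tu. Their deposited estimated counts were not whole in 5 of the libraries, but their sum was whole in all 6. The pair held 115.93 and 150.07 counts in morphant 1, which sum to 266, and 571.57 and 122.43 counts in control 2, which sum to 694. Values of this kind would arise if reads that match both genes were divided between them, but no source used here states how they were made. The split of a library between the pair is therefore uncertain.

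itgb1b.1 measured 4.55, 1.74 and 4.08 CPM in morphants 1 to 3, against 5.89, 20.8 and 4.96 CPM in controls 1 to 3. The groups did not overlap in CPM, but the difference was mostly that of control 2. In TPM they overlapped, at 1.94 in morphant 1 and 1.88 in control 3, and the implied length of itgb1b.1 varied 1.33-fold. The log2 fold change was -1.61 with an SE of 0.64 (edgeR adjusted p = 0.27), and -0.65 without control 2. itgb1b.2 measured 5.89, 2.92 and 3.30 CPM in morphants 1 to 3, against 3.60, 4.43 and 3.50 CPM in controls 1 to 3, with groups that overlapped. Its log2 fold change was 0.07 with an SE of 0.40 (edgeR adjusted p = 0.95), and -0.30 without morphant 1. With the counts of the pair summed, an alternative chosen after seeing the data, the log2 fold change was -0.94 with an SE of 0.50 (edgeR adjusted p = 0.38).

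**Figure D3:**
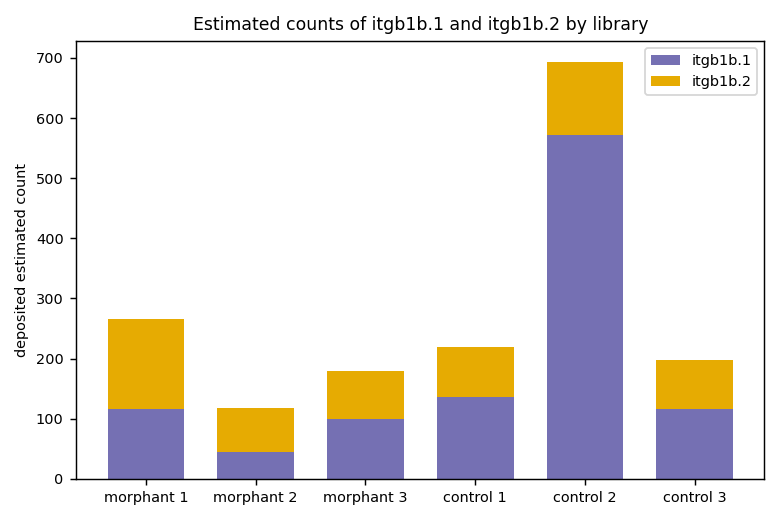
Deposited estimated counts of the neighbouring genes itgb1b.1 and itgb1b.2, stacked for each library, with morphants left of controls. The stack is 694 counts high in control 2 and between 118 and 266 in the other libraries, and nearly all of the excess in control 2 is assigned to itgb1b.1.

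Among the 4 beta 1 genes, itgb1b carried 88.9, 96.4 and 92.2% of the summed beta 1 TPM in morphants 1, 2 and 3 and 93.0, 82.7 and 92.8% in controls 1, 2 and 3. itgb1a carried 1.40, 0.76 and 1.81% in morphants and 2.93, 4.14 and 2.92% in controls. By TPM itgb1b thus made up most of the beta 1 pool in each library, and the difference in itgb1a concerned a few percent of it. These shares rest on the short length implied for itgb1b, 1359 bases. Estimated counts are not divided by length. In control 2 they were 2041 for itgb1b, 571.57 for itgb1b.1, 309 for itgb1a and 122.43 for itgb1b.2. In morphant 2 they were 2359, 43.87, 81 and 74.13 for these genes in the same order.

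itgb4, the beta 4 subunit that in epithelia anchors hemidesmosomes to laminin, measured 6.40, 3.79 and 3.46 CPM in morphants 1 to 3, against 30.3, 4.57 and 23.0 CPM in controls 1 to 3. Controls 1 and 3 were high, and control 2 lay among the morphants. Its log2 fold change was -2.08 with an SE of 0.64, a ratio of 0.236 (edgeR adjusted p = 0.20). Without control 2 it was -2.54, and edgeR then called it (adjusted p = 0.042). DESeq2 called it on all libraries (adjusted p = 0.021), and limma-voom did not (adjusted p = 0.35). The 16 alternatives ran from -2.54 to -1.55, with -1.55 from a correction for gene length and -1.59 without control 1.

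Skeletal muscle markers shared the high controls 1 and 3 with itgb4, but not the order of the other libraries. Morphant 2 lay above control 2 in the muscle sum and below control 2 in itgb4. The muscle sum was 11976, 24214 and 10485 TPM in morphants 1, 2 and 3 and 50005, 15792 and 75457 TPM in controls 1, 2 and 3. Of the 24 on the list, 0 were higher and 17 lower in edgeR at an unadjusted p under 0.05, where 9.46% of all genes were lower. That count was 2 without morphant 1, morphant 3 or control 3 and 3 without control 1, while all 24 had a negative log2 fold change in each of these fits. Over all genes 855 of 19503 were lower without morphant 1 and 1006 of 19457 without morphant 3. Without control 1 this was 1499 of 19350, and without control 3 1620 of 19519. Epidermal markers, the cell type in which beta 4 is best known, summed to 2630, 2507 and 2950 TPM in morphants 1, 2 and 3 and to 5233, 5989 and 3588 TPM in controls 1, 2 and 3. As a sum they were thus high in control 2, where itgb4 was low, but the 2 most abundant markers differed there. krt4 was at 1222, 2705 and 450 TPM in controls 1, 2 and 3, and at 557, 321 and 645 TPM in morphants 1, 2 and 3. krt8 was at 2142, 1108 and 2224 TPM in controls 1, 2 and 3, and at 1510, 1822 and 1712 TPM in morphants 1, 2 and 3. Of the list, 10 of 21 tested were lower in edgeR at an unadjusted p under 0.05. That count was 4 without morphant 1, morphant 2 or control 1, 6 without control 2 and 5 with limma-voom. Over all genes 1987 of 19525 were lower without morphant 2, 1934 of 19462 without control 2 and 1590 of 18846 with limma-voom. Notochord, sclerotome and mesenchyme markers were also highest in controls 1 and 3, at 3013 and 3324 TPM. They summed to 1555 TPM in control 2 and to 157, 878 and 110 TPM in morphants 1, 2 and 3. The part of these cell types in the itgb4 values was not tested.

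itgb3b, 1 of the 2 beta 3 genes, encodes a partner of alpha v and of the platelet subunit alpha IIb. It measured 14.7, 22.8 and 16.4 CPM in morphants 1 to 3, against 11.1, 3.45 and 5.34 CPM in controls 1 to 3. All 3 morphants lay above all 3 controls. On the log2 scale the fold change was 1.44 (SE 0.45), a ratio of 2.71 (edgeR adjusted p = 0.20, unadjusted p = 0.013). DESeq2 called it (adjusted p = 0.035), and the 16 alternatives ran from 0.92 to 2.03.

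itgb3a, the other beta 3 gene, stood on few reads, with 56, 7 and 30 estimated counts in morphants 1, 2 and 3 and 0, 2 and 12 in controls 1, 2 and 3. The groups overlapped, since control 3 had more than morphant 2. The log2 fold change was 2.64 with an SE of 1.32 (edgeR adjusted p = 0.35), and 4.85 without control 3, where the controls held only 0 and 2 counts.

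itgb5, a subunit that with alpha v binds vitronectin, measured 45.1, 53.2 and 40.6 CPM in morphants 1 to 3, against 24.5, 27.2 and 38.4 CPM in controls 1 to 3. The groups did not overlap, though control 3 came near morphant 3. On the log2 scale the fold change was 0.62 (SE 0.23), a ratio of 1.54 (edgeR adjusted p = 0.24, unadjusted p = 0.026), and the 16 alternatives ran from 0.45 to 0.84. DESeq2 gave an adjusted p of 0.14.

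Endothelial markers were also higher in the 3 morphants. They summed to 7011, 7763 and 7578 TPM in morphants 1, 2 and 3 and to 4312, 3547 and 4869 TPM in controls 1, 2 and 3. In edgeR 13 of 27 were higher and 0 lower at an unadjusted p under 0.05. Over all genes 7.58% were higher and 9.46% lower. After adjustment edgeR called 0, and DESeq2 called 8 higher, where it called 3.5% of all genes higher. The 13 became 9 without morphant 3 and 10 without morphant 2 or control 1, with 1 lower without morphant 2. Over all genes 863 of 19457 were higher without morphant 3, 1532 of 19525 without morphant 2 and 1409 of 19350 without control 1. Without morphant 2, 1987 of all genes were lower. The median log2 fold change of the endothelial markers was 0.57, and 0.47 to 0.83 with 1 library left out. Thrombocyte markers, for the blood cells in which beta 3 is best known, summed to 976 to 1073 TPM in morphants and 852 to 1483 TPM in controls. Most of that sum was f13a1b, a coagulation factor XIII subunit gene, at 861 ± 53.3 TPM in morphants and 903 ± 248 TPM in controls (SD, n = 3 each). Over the list, 8 of 10 tested had a negative log2 fold change, 1 was higher and 4 lower at an unadjusted p under 0.05 in edgeR, and the median was -0.71, but -0.01 without control 2, -0.18 without control 1 and -0.41 without morphant 2. The gene for alpha IIb, itga2b, was at 0.19 TPM or less in every library. The part of endothelial content in the itgb3b and itgb5 values was not tested.

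itgb2, the common beta chain of the leukocyte integrins, measured 126, 83.3 and 165 CPM in morphants 1 to 3, against 119, 247 and 103 CPM in controls 1 to 3. Control 2 was the highest library and the rest overlapped. On the log2 scale the fold change was -0.32 (SE 0.38, edgeR adjusted p = 0.70), and 0.18 without control 2. itgb7, which in mammals pairs with alpha 4 and alpha E on lymphocytes, measured 16.2, 11.1 and 30.1 CPM in morphants 1 to 3, against 19.8, 41.1 and 7.18 CPM in controls 1 to 3. Its log2 fold change was -0.24 with an SE of 0.61 (edgeR adjusted p = 0.87), 0.51 without control 2 and 0.03 without morphant 2. Both genes varied more between replicates of a group than between the groups.

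Both genes were highest in control 2 and next highest in morphant 3. Neutrophil and macrophage markers summed to 18262, 10155 and 32577 TPM in morphants 1, 2 and 3 and to 15479, 30380 and 9164 TPM in controls 1, 2 and 3, and so were also highest in morphant 3 and control 2. Most of that sum was lyz, at 13464 ± 8339 TPM in morphants and 11536 ± 6407 TPM in controls (SD, n = 3 each). None of the 19 markers tested passed an unadjusted p under 0.05 in edgeR or DESeq2 on all libraries. Without control 2 and morphant 2, 9 were higher at an unadjusted p under 0.05 in edgeR. By that measure 2228 of all 19121 genes were higher in the same fit. After adjustment 1 marker was called higher, where 490 of all 19121 genes were. The part of these markers in the itgb2 and itgb7 values was not tested.

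**Figure D4:**
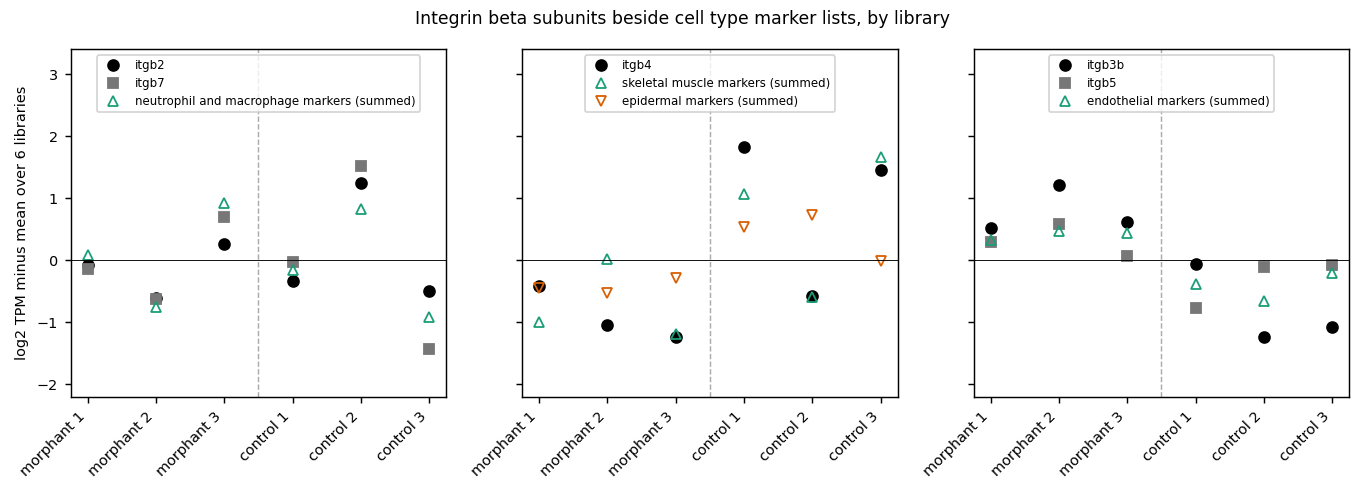
Log2 TPM minus its mean over the 6 libraries for integrin beta genes (filled) and for summed marker lists (open), by library, with morphants left of the dashed line. itgb2 and itgb7 share their high libraries, morphant 3 and control 2, with neutrophil and macrophage markers, itgb4 shares controls 1 and 3 with muscle markers, and itgb3b and itgb5 share the 3 morphants with endothelial markers.

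Summed over the 10 genes, integrin beta transcripts reached 141, 173 and 156 TPM in morphants 1, 2 and 3 and 170.1, 269.6 and 151.4 TPM in controls 1, 2 and 3. Control 2 stood above the other 5, which overlapped. Beta 3 made up 6.22, 7.16 and 5.59% of the sum in morphants and 2.97, 0.849 and 1.82% in controls. Beta 5 made up 13.4, 13.4 and 10.4% in morphants and 5.33, 5.32 and 9.66% in controls. These shares lay apart between the groups, as did that of itgb1a, at 0.567, 0.433 and 0.666% in morphants and 1.78, 1.70 and 1.76% in controls. The shares of beta 1 as a whole overlapped, at 36.8 to 56.9% in morphants and 41.0 to 60.5% in controls, as did those of beta 2, at 19.3 to 38.9% in morphants and 23.7 to 44.5% in controls. A share depends on every other member, so these values carry no test.

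**Figure D5:**
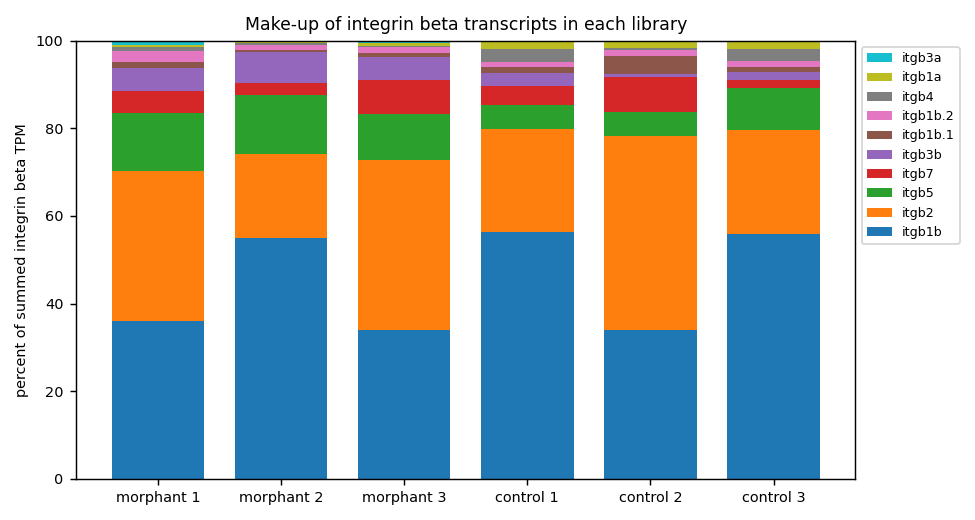
Percent of the summed TPM of the 10 integrin beta genes taken by each gene, stacked for each library, with morphants left of controls. itgb1b and itgb2 together fill 70.2 to 79.9% of each bar, and the bands of itgb5 and itgb3b are wider in the 3 morphants than in the 3 controls.

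The alpha partners were described from a list of 22 symbols, of which 20 were in the table and 15 could be tested. In edgeR 0 passed the adjusted threshold, while DESeq2 called 2 lower, where it called 3.71% of all genes lower. Without control 2 edgeR called 1 lower, where it called 46 of all 19462 genes lower. At an unadjusted p under 0.05 in edgeR 0 were higher and 5 lower, where 7.58% of all genes were higher and 9.46% lower. The 5 became 1 without morphant 1 or morphant 3, 3 without morphant 2 or control 3, and 2 with limma-voom or a correction for gene length. Over all genes 855 of 19503 were lower without morphant 1 and 1006 of 19457 without morphant 3. Without morphant 2 this was 1987 of 19525, and without control 3 1620 of 19519. It was 1590 of 18846 with limma-voom and 1363 of 18846 with the gene length correction. The median log2 fold change of the 15 alpha genes was -0.31. That median was -0.04 without morphant 1, -0.13 without control 2, -0.48 without morphant 2 and -0.01 with the gene length correction. The 5 most abundant were itga4, itga1, itgae.2, itga5 and itgae.1. itga4, a partner of beta 1 and beta 7, averaged 27.3 ± 4.33 TPM in morphants and 37.0 ± 12.0 TPM in controls (SD, n = 3 each), with a log2 fold change of -0.39 (SE 0.18, edgeR adjusted p = 0.31). itga5, the fibronectin-binding partner of beta 1, averaged 14.9 ± 4.62 TPM in morphants and 14.7 ± 1.15 TPM in controls (log2 fold change 0.01, SE 0.23). itga1, a collagen-binding partner of beta 1, averaged 26.4 ± 9.26 TPM in morphants and 21.8 ± 5.88 TPM in controls (log2 fold change 0.31, SE 0.25).

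For the less common beta subunits the alpha partners were looked up by known pairing, of which itgav, itga6a and itga6b lay outside the naming rule. Also outside it was itga3b, the alpha gene with the lowest unadjusted p (0.0023 in edgeR). It averaged 0.38 ± 0.269 TPM in morphants and 2.13 ± 0.576 TPM in controls (log2 fold change -2.40, SE 0.54, edgeR adjusted p = 0.14). itgav, the alpha v partner of beta 3 and beta 5, averaged 2.95 ± 0.534 TPM in morphants and 3.16 ± 1.98 TPM in controls (SD, n = 3 each), and its log2 fold change was 0.00 with an SE of 0.35. It stood below itgb5 in level in both groups. itga6a, a partner of beta 4 and beta 1, was at 5.19, 5.62 and 4.63 TPM in morphants 1, 2 and 3 and at 12.2, 5.61 and 12.1 TPM in controls 1, 2 and 3. Control 2 lay within the morphant range in TPM, as with itgb4 (itga6a log2 fold change -0.95, SE 0.41, edgeR adjusted p = 0.29). In CPM control 2 lay below all 3 morphants for itga6a, at 12.0 against 13.6 to 15.2. itga6b, the other alpha 6 gene, was at 6.75, 8.61 and 6.20 TPM in morphants 1, 2 and 3 and at 10.7, 8.93 and 9.53 TPM in controls 1, 2 and 3. There control 2 lay above all 3 morphants in TPM, though within their range in CPM (itga6b log2 fold change -0.48, SE 0.25, edgeR adjusted p = 0.37). itgae.1, a homologue of the alpha E partner of beta 7, averaged 13.4 ± 7.12 TPM in morphants and 8.12 ± 4.41 TPM in controls (log2 fold change 0.80, SE 0.56, edgeR adjusted p = 0.49). itgae.2, the other, averaged 11.6 ± 0.852 TPM in morphants and 20.6 ± 12.2 TPM in controls (log2 fold change -0.70, SE 0.28, edgeR adjusted p = 0.27). Control 2 was at 34.7 TPM, while controls 1 and 3, at 12.8 and 14.3 TPM, lay just above the morphants, at 10.7 to 12.4 TPM. The groups did not overlap in CPM either, where 11.9% of all genes lay apart in that direction.

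Of the cytoplasmic partners, 51 adaptors and focal adhesion genes were tested. In edgeR 0 were called on all libraries. DESeq2 called 1 higher and 2 lower, where it called 3.5% of all genes higher and 3.71% lower. At an unadjusted p under 0.05 in edgeR 6 were higher and 9 lower, against 7.58% and 9.46% of all genes, and without morphant 1 or morphant 3 there were 2 higher and 3 lower. Without morphant 1, 882 of all 19503 genes were higher and 855 lower. Without morphant 3, 863 of all 19457 genes were higher and 1006 lower. The median log2 fold change of the 51 genes was -0.09, which turned to 0.03 without morphant 1 and to 0.05 with the gene length correction. The 5 most abundant were dab2, cdc42, rap1b, rac1a and actn4. rac1a, a small GTPase of cell spreading, averaged 283 ± 27.4 TPM in morphants and 174 ± 32.3 TPM in controls (SD, n = 3 each; log2 fold change 0.66, SE 0.28, edgeR adjusted p = 0.28). cdc42, another such GTPase, averaged 454 ± 19.8 TPM in morphants and 358 ± 74.0 TPM in controls. dab2, an endocytic adaptor, averaged 697 ± 185 TPM in morphants and 445 ± 98.4 TPM in controls, and rap1b, a GTPase of integrin activation, 269 ± 15.7 TPM in morphants and 219 ± 63.1 TPM in controls. actn4, an actin cross-linker, averaged 173 ± 19.6 TPM in morphants and 255 ± 82.3 TPM in controls (log2 fold change -0.49, SE 0.19, edgeR adjusted p = 0.26).

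Of the ligands, 38 matrix and adhesion genes were tested. In edgeR 1 was called lower, in limma-voom 3 lower, and in DESeq2 1 higher and 11 lower, where DESeq2 called 3.5% of all genes higher and 3.71% lower. Without control 2 and morphant 2, edgeR called 1 higher and 13 lower of 39 tested. Over all 19121 genes tested in that fit, 490 were called higher and 869 lower. At an unadjusted p under 0.05 in edgeR 2 were higher and 15 lower, against 7.58% and 9.46% of all genes. The median log2 fold change was -0.67, against -0.04 for all genes. That median was -0.36 without control 3 and -0.29 with the gene length correction. The gene edgeR called was col1a2, a chain of type I collagen, at 26.4 ± 6.18 TPM in morphants and 91.7 ± 22.0 TPM in controls (SD, n = 3 each; log2 fold change -1.77, SE 0.20, edgeR adjusted p = 0.039). The call was lost without morphant 1 (edgeR adjusted p = 0.31), morphant 3 (0.33), control 1 (0.16) or control 3 (0.17), where the log2 fold change stayed between -1.82 and -1.66. Summed over 43 ligand genes the level was 439.7, 672 and 415 TPM in morphants 1, 2 and 3 and 1019, 1009 and 1033 TPM in controls 1, 2 and 3. All 3 morphants lay below all 3 controls. tgfbi, the most abundant ligand, averaged 198 ± 88.2 TPM in morphants and 425 ± 97.6 TPM in controls. col1a1a, the other main chain of type I collagen, averaged 14.2 ± 3.83 TPM in morphants and 78.0 ± 39.9 TPM in controls (edgeR adjusted p = 0.058). thbs1b, a thrombospondin, averaged 38.1 ± 6.80 TPM in morphants and 62.5 ± 8.66 TPM in controls, and lama4, a laminin chain of vessel walls, 34.5 ± 11.5 TPM in morphants and 41.3 ± 12.6 TPM in controls. Notochord, sclerotome and mesenchyme markers, which include cells that make fibrillar collagen, summed to 110 to 878 TPM in morphants and 1555 to 3324 TPM in controls, and 10 of 15 tested were lower at an unadjusted p under 0.05 in edgeR. Without morphant 1 this was 5 of 17, without morphant 3 6 of 17, and without control 1 6 of 16. Over all genes 855 of 19503, 1006 of 19457 and 1499 of 19350 were lower in these fits. The part of these markers in the ligand values was not tested.

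Genes were ranked by how close their pattern over the 6 libraries lay to a beta subunit, among 12194 genes of at least 5 CPM. Closeness was the root mean square difference in log2 CPM, after centring each gene on its mean. Genes without an established symbol were skipped, and the 3 closest of the rest were named. For itgb1b they were b4galt6, exoc8 and phip, at differences of 0.05, 0.08 and 0.09 log2 units, where itgb1b itself varied by 0.40 around its mean. For itgb2 they were spns3, fgd and myo1f, at 0.07, 0.10 and 0.11. For itgb5 they were mkrn1, tmem198b and pigl, at 0.07, 0.07 and 0.09. For itgb3b they were tmem176, kaznb and icn, at 0.19, 0.24 and 0.25, and for itgb1a zfyve16, slc38a5a and crybg1b, at 0.17, 0.21 and 0.22. itgb1b.1 lay closest to gnaz, aqp3a and coro7, at 0.16, 0.25 and 0.27, each of which had its highest value in control 2. With 12194 genes and only 6 libraries, some close patterns arise in any case, and these values are a description.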

How the data were processed

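RNA-seq libraries of 3 dnmt3ba morphant and 3 control samples were grouped by the sample labels. The tools used, per the submitters' processing notes, included HTSeq 0.12.4, HISAT2 2.2.1 and DESeq2 1.30.1, with the build GRCz11. No source used here states their roles, the annotation or the strand setting. The table held the authors' deposited estimated counts, not normalised, of which 13.5 to 15.1% per library were not whole. It also held the authors' deposited FPKM and the authors' deposited TPM values, both divided by gene length. Implied lengths took the table's total as the number of reads.

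Estimated counts were rounded to whole numbers, filtered with filterByExpr, scaled by TMM (factors 0.932 to 1.11) and tested with edgeR 4.0.16 quasi-likelihood F-tests in R 4.3.3, two-sided, with p-values adjusted over all genes tested. The SE was derived from the F statistic. The script was tested on simulated data. Alternatives were limma-voom 3.58.1, DESeq2 1.42.0, scaling by RLE or by the upper quartile, other filters, rounding down, a replicate block, a loess correction for gene length (span 0.5), and leaving out libraries. Same-numbered libraries did not deviate together.

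The members, gene lists and tests were chosen with earlier results of these data known. All members were named. So were the 5 most abundant genes of the alpha, adaptor and ligand lists or any called there. The 3 genes with an established symbol nearest in pattern were named for the 3 most abundant members and those with unadjusted p under 0.05. The genes nearest to itgb4 are not reported here. Listed genes absent under their symbol were looked up by synonym in the RefSeq table of GRCz12tu, in which all 10 members were found by gene ID. Methylation at these genes was not analysed here.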

Additional observations from a re-analysis of the deposited data

How the results depend on the processing

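The number of genes called over the whole table was 12, and also 12 under RLE or upper-quartile scaling, limma-voom and rounding down. It was 15 with at least 5 CPM in 3 libraries, 37 with no filter, 29 with the gene length correction and 1226 with DESeq2. Leaving out 1 library gave 0 to 77, and leaving out control 2 and morphant 2 together gave 1359. The number of integrin beta genes called was 0, but 3 with DESeq2, 0 to 1 with 1 library left out and 3 without control 2 and morphant 2 (itgb1a, itgb1b and itgb4, all lower). For 7 of the 10 genes the direction held in each alternative that tested them, which was 15 of the 16 for itgb1b.1 and itgb3a, since both were left out at 5 CPM in 3 libraries. With 1 library left out, itgb1b.2 ran from -0.30 to 0.26, itgb2 from -0.57 to 0.18 and itgb7 from -0.73 to 0.51 in log2 fold change. Without control 2 and morphant 2, itgb2 was 0.40, itgb7 0.78 and itgb1b.2 0.38. The median of the beta genes ran from -0.50 to 0.18 with 1 library left out, and was 0.39 without that pair. The median of thrombocyte markers, -0.71 on all libraries, ran from -0.79 to -0.01 with 1 library left out and was 0.0094 without that pair, and the ligand median was -1.02 there. The col1a2 call was also lost with the replicate block (edgeR adjusted p = 0.19). The cause was not tested. Of the 10 ranks by mean TPM, 10 were kept in FPKM and 6 to 10 with 1 library left out.

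With the replicate number as a block, 0 genes were called. The correlations of the deviations of same-numbered libraries were 0.04, -0.08 and -0.15 for numbers 1, 2 and 3. These values showed no shared deviation, but with 3 libraries a group they cannot tell whether the samples were paired. Precision is limited by 3 libraries a group and, for itgb3a, by at most 56 estimated counts.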

Other observations

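3 further genes with an integrin beta or beta-like symbol lay outside the list of 10. itgb6, in mammals an epithelial partner of alpha v, was at 1.17, 1.94 and 0.64 TPM in morphants 1, 2 and 3 and at 0.64, 3.09 and 0.77 TPM in controls 1, 2 and 3 (log2 fold change -0.11, SE 0.62, edgeR adjusted p = 0.94). itgb8 was at 0.05 TPM in morphant 1 and 0.27 TPM in control 1 and was listed at 0 in the other 4 libraries. itgbl1 was at 0.05, 1.09 and 0.09 TPM in morphants and at 1.2, 0.06 and 1.08 TPM in controls. Control 2 lay with morphants 1 and 3, and morphant 2 with controls 1 and 3, but these values rest on few reads (0.036 to 1.13 CPM). itgb1bp1, which encodes a protein that binds the beta 1 tail, was at 36.1, 33.7 and 32.0 TPM in morphants and at 43.0, 50.4 and 26.9 TPM in controls (log2 fold change -0.21, SE 0.22, edgeR adjusted p = 0.67).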
